A study of Mus musculus with 10 samples.

Results

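The 10 genes described here encode surface receptors, adhesion molecules and a cross-presentation factor of type 1 conventional dendritic cells (cDC1). They are Xcr1, Clec9a, Itgae, Ly75, Cd8a, Cd24a, Cadm1, Gpr33, Wdfy4 and Cd36, all protein coding and chosen by symbol, and 10 of 10 are among the 19178 genes of the count table. Poly(A) RNA of mouse dendritic cells was sequenced in 5 Ptbp1-deficient and 5 wild-type (WT) libraries from mice aged 8 to 10 weeks, as paired 150 bp reads. Ptbp1 encodes a polypyrimidine tract-binding protein that controls splicing, and the study compared KO with WT cells to learn which RNAs change without it. The labels give no tissue, sex, strain or treatment, and they name neither the Ptbp1 allele nor any Cre driver, so which cells of the mice lacked Ptbp1 is not known here. Whether the 5 libraries of a group are 5 mice is not stated, and p-values therefore measure the spread between libraries, which may be technical.

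Dendritic cells take up antigen and show it to T cells. The cDC1 subset is known for cross-presentation, in which peptides of engulfed material, such as dead cells, are loaded on MHC class I for CD8 T cells. Its development depends on the transcription factors Irf8 and Batf3, and its surface proteins include the chemokine receptor XCR1, the dead-cell lectin CLEC9A, the integrin chain CD103 and, in lymphoid organs, CD8α.

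Ptbp1 itself checks the labels. It stood at 73.2 to 75.7 CPM (counts scaled by TMM to library size) in the deficient libraries and at 259 to 312 CPM in WT, a log2 fold change of -1.98 (SE 0.051, adjusted p = 1.9e-09). Its difference was smaller in the FPKM table (fragments scaled by gene length and depth), with 28.7 ± 6.02 in the deficient and 65.3 ± 2.81 in the WT libraries (SD, n = 5), or -1.18 on the log2(FPKM + 1) scale. Here and below an adjusted p comes from edgeR's quasi-likelihood test (Benjamini-Hochberg over 18248 genes) and passes under 0.05. Gene counts per library were 61759378 to 92697815 in the deficient group and 50516163 to 66153758 in WT, the deficient group being deeper on average with p = 0.0397 (two-sided exact permutation test, 5 against 5 libraries). The fewest counts behind any value of the 10 genes were the 189 of Gpr33 in a WT library. Of 8 pan-dendritic genes, which include Flt3, Itgax and MHC class II, 3 rose and 1 fell, where 21.9% of all genes tested rose and 23.1% fell. Their summed level was 32310 to 35050 CPM in deficient libraries and 27470 to 33560 CPM in WT. Most of it came from Cd74, H2-Ab1 and H2-Aa, with means of 13830, 8999 and 7049 CPM in deficient and 13470, 8395 and 5814 CPM in WT libraries. Without WT replicate 5, 2 of the 8 fell, and in an edgeR fit that also holds the mean log2 level of macrophage markers (the macrophage score) 1 rose and 2 fell. The level of these markers did not overlap between genotypes, so here and below that fit cannot fully separate the score from genotype. The table holds only genes with at least 2 counts in every library, so no marker in it is at 0.

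All 10 genes were higher in the Ptbp1-deficient libraries and passed the test; of all genes tested 45.0% passed, 21.9% higher and 23.1% lower in the deficient libraries. For each of the 10, the lowest deficient library lay above the highest WT library in CPM, where the groups did not overlap for 33.4% of all genes tested, 17.2% higher and 16.2% lower. The median log2 fold change of the 10 was 1.01, and that of all genes tested was -0.026. The 10 genes and all lists below were chosen with earlier results of these data known, so their counts are not independent of these data. The differences ran from 7.12-fold for Gpr33, 4.28-fold for Itgae and 3.21-fold for Xcr1 to 1.59-fold for Clec9a and 1.34-fold for Wdfy4. These libraries are bulk RNA, in which more cells of a type and more RNA per cell cannot be told apart. Where a pair of values is given below without groups, the deficient group comes first.

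**Figure D1:**
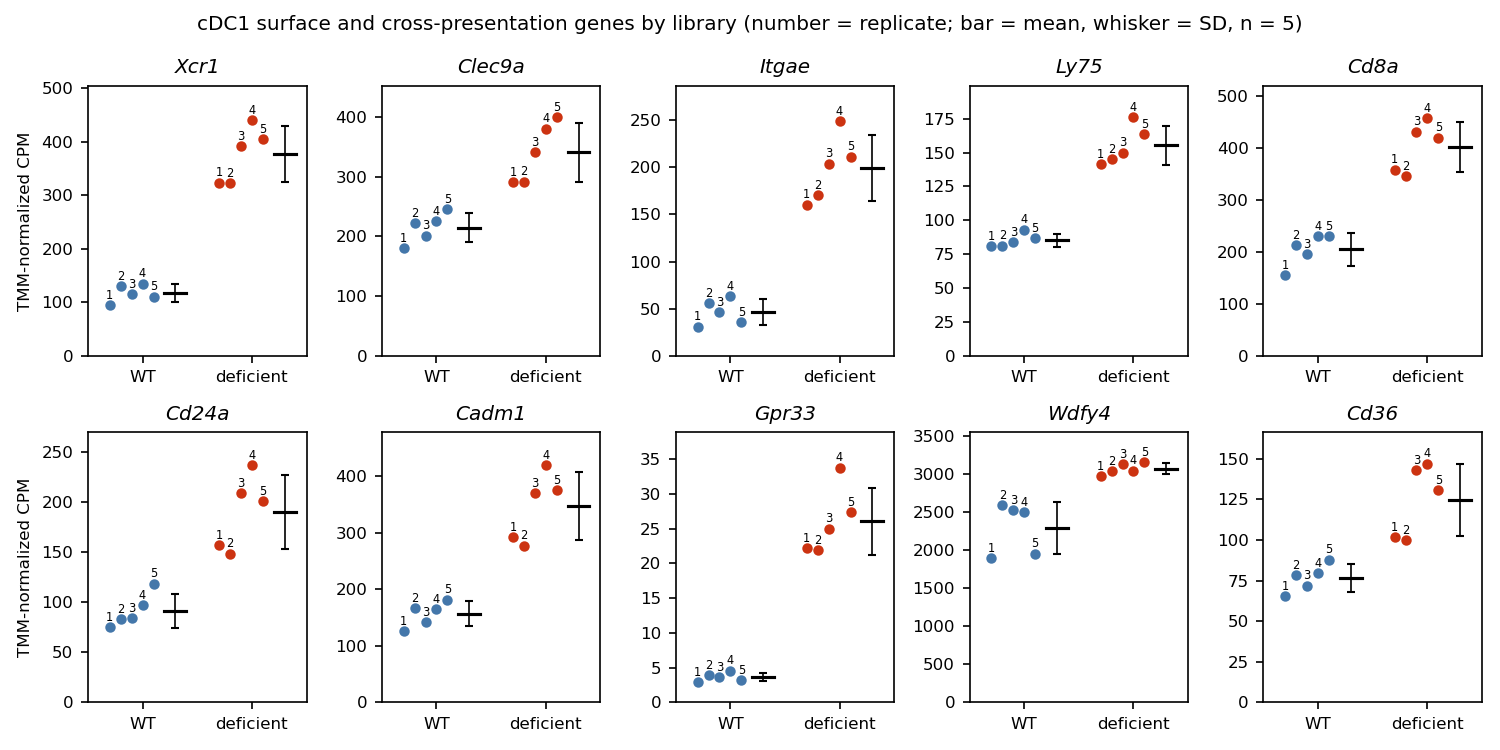
TMM-normalized CPM of each of the 10 genes in the 5 WT and 5 Ptbp1-deficient libraries. Points are libraries numbered by replicate, horizontal bars are means and whiskers are SDs; each axis starts at 0, and in every panel the 5 deficient libraries lie above the 5 WT libraries.

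The promoters of 4 of the genes are shown because the genes moved together while differing in size of change: Gpr33 and Xcr1 with large, Cd8a and Clec9a with smaller differences. RefSeq windows (build GRCm38.p6) were matched for 7 of the 10, namely Ly75, Cd36, Cd8a, Clec9a, Xcr1, Gpr33 and Wdfy4. For Ly75, Cd36 and Wdfy4 the start in the window is not the gene start of the coordinates given below. For the 4 genes shown it is. The sequences run from 240 bases before to 10 bases after the start, 5′ to 3′ on the gene's strand. They are chr12:52028054-52028303 (minus strand) for Gpr33, chr9:123862020-123862269 (minus strand) for Xcr1, chr6:71373187-71373436 (plus strand) for Cd8a and chr6:129408622-129408871 (plus strand) for Clec9a. Capitals mark a match on either strand to GAAANNGAA, the core of the interferon-stimulated response element, or to GGAANNGAA, the ETS-IRF composite element that IRF8 can bind with ETS factors.
Gpr33: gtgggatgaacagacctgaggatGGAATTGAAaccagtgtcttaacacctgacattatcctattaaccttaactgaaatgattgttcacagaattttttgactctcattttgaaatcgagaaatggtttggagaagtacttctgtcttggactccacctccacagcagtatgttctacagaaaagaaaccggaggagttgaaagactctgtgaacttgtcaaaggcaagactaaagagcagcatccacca
Xcr1: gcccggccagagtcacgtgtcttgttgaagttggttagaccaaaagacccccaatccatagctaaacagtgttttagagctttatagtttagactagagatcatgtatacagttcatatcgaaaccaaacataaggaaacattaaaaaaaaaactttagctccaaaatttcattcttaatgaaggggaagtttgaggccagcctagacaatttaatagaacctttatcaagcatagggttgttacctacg
Cd8a: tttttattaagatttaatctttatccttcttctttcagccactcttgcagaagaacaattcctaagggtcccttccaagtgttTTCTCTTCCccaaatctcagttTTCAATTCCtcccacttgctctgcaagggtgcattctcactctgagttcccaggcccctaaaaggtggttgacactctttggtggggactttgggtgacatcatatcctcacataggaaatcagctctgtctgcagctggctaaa
Clec9a: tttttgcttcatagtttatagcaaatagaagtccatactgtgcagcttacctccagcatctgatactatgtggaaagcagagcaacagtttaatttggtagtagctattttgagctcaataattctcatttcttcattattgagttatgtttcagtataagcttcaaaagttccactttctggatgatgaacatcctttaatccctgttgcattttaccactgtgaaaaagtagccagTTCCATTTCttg
The search covered windows of 300 bases, 250 before to 50 after the start. GGAANNGAA occurred in 8.24% of all 32851 windows and in 2 of the 7, at -217 in Gpr33 and at -157 and -135 in Cd8a, counted from the start to the first base of the match. GAAANNGAA occurred in 8.56% of all windows and in 1 of the 7, Clec9a at -2. The AP-1 element TGANTCA was found in 7.81% of all windows and in 0 of the 7. No matches overlapped in these windows, and the window of Xcr1 held none of the 3 elements. A match describes the letters only and does not show that a factor binds there.

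Among the receptors, Xcr1 separated the genotypes widely. It encodes the receptor for the chemokine XCL1, which NK cells and activated CD8 T cells release, and lies on chromosome 9 (ENSMUSG00000060509, 123852315 to 123862029, minus strand, GRCm38). Deficient replicates 1 to 5 had 324, 322, 391, 441 and 404 CPM, and WT replicates 1 to 5 had 94.4, 130.4, 115, 135 and 110.5 CPM. The lowest deficient library was 2.38 times the highest WT library. The means were 376 ± 52.0 and 117 ± 16.3 CPM (SD, n = 5), a log2 fold change of 1.69 (SE 0.11, adjusted p = 7.8e-07).

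Gpr33, an orphan receptor of the chemoattractant receptor family, had the largest fold change of the 10 and the lowest level in FPKM. It lies on chromosome 12 (ENSMUSG00000035148, 52023003 to 52028063, minus strand). It stood at 22.2, 21.9, 25.0, 33.8 and 27.4 CPM in the deficient libraries and at 2.95, 3.90, 3.68, 4.57 and 3.21 CPM in WT. The counts behind these values were 1352 to 2944 and 189 to 272. The means of 26.1 ± 4.86 and 3.66 ± 0.631 CPM (SD, n = 5) gave a log2 fold change of 2.83 (SE 0.15, adjusted p = 2.2e-07), rank 26 of 18248 from the highest.

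The uptake receptors Clec9a, Ly75 and Cd36 rose less. Clec9a, the lectin that recognizes actin filaments exposed by dead cells, lies on chromosome 6 (ENSMUSG00000046080, 129408862 to 129424763, plus strand). Its levels were 291, 292, 341, 380.4 and 399.8 CPM in deficient libraries and 181, 222, 201, 225.5 and 245 CPM in WT, so the groups were close at their edges. The means were 341 ± 49.8 and 215 ± 24.6 CPM (SD, n = 5) and the log2 fold change 0.67 (SE 0.10, adjusted p = 3.3e-04). Exons of Clec1b overlap those of Clec9a on the same strand, and Clec1b had 5.97 ± 2.12 and 7.22 ± 3.15 CPM (log2 fold change -0.27; it passed in 0 of 21 alternative fits).

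Ly75 encodes DEC-205, an endocytic lectin through which antigen has been targeted to cDC1, and lies on chromosome 2 (ENSMUSG00000026980, 60292103 to 60383303, minus strand). It had 141, 145, 150, 176 and 164 CPM in deficient libraries and 81.0, 81.3, 83.9, 93.2 and 86.8 CPM in WT. Both groups were tight, with SDs of 9.28% and 5.89% of the mean. At 155 ± 14.4 against 85.2 ± 5.02 CPM (SD, n = 5), the log2 fold change was 0.87 (SE 0.065, adjusted p = 1.8e-06). The antisense gene Gm13571 overlaps its exons and reached at most 1.81 CPM. The sources used here do not state whether counting used strand.

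Cd36, a scavenger receptor for lipids and dead cells that is also abundant in macrophages, lies on chromosome 5 (ENSMUSG00000002944, 17781690 to 17888801, minus strand). Deficient libraries had 102, 100, 143, 147 and 131 CPM and WT libraries 65.5, 78.3, 71.8, 79.6 and 87.8 CPM. The means were 124.5 ± 22.3 and 76.6 ± 8.43 CPM (SD, n = 5), a log2 fold change of 0.70 (SE 0.12, adjusted p = 5.4e-04). As FPKM the groups overlapped, with a lowest deficient value of 26.4 and a highest WT value of 28.9. There limma gave a difference of 0.28 on the log2(FPKM + 1) scale (adjusted p = 0.0574), so Cd36 did not pass in that fit, which differs from the count fit in both the table and the test.

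The adhesion genes Itgae, Cadm1 and Cd24a rose by over 2-fold. Itgae encodes CD103, the integrin αE chain, and lies on chromosome 11 (ENSMUSG00000005947, 73090583 to 73147446, plus strand). Its levels were 160.5, 171, 204, 249 and 211 CPM in deficient libraries and 30.9, 56.1, 46.4, 63.5 and 36.0 CPM in WT. WT replicates 1 and 5 were the lowest, and the WT SD was 13.5 CPM on a mean of 46.6 CPM. The deficient mean was 199 ± 35.3 CPM (SD, n = 5), which gave a log2 fold change of 2.10 (SE 0.19, adjusted p = 7.0e-06).

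Cadm1, an immunoglobulin-type adhesion molecule that binds CRTAM on T and NK cells, lies on chromosome 9 (ENSMUSG00000032076, 47530173 to 47857637, plus strand). It had 292, 277, 370.4, 419 and 376 CPM in deficient libraries and 126, 167, 142, 165.5 and 182 CPM in WT. At 347 ± 60.1 against 156.5 ± 22.2 CPM (SD, n = 5), its log2 fold change was 1.15 (SE 0.13, adjusted p = 2.5e-05). Of the WT libraries, replicate 1 was lowest and replicate 5 highest.

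Cd24a encodes the GPI-anchored CD24, a glycoprotein that immature B cells and erythroid cells also carry, and lies on chromosome 10 (ENSMUSG00000047139, 43578284 to 43584265, plus strand). It had 157, 148, 209, 237 and 201 CPM in deficient libraries and 75.1, 83.2, 84.1, 97.1 and 119 CPM in WT. WT replicate 5 stood above the other WT libraries, and the lowest deficient library was 1.25 times its level. The means were 190.2 ± 37.1 and 91.6 ± 17.0 CPM (SD, n = 5), a log2 fold change of 1.05 (SE 0.15, adjusted p = 1.4e-04). Retroposed copies of Cd24a exist in the mouse genome and reads that were not unique were kept out of the gene rows, so its counts are uncertain to that extent.

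Cd8a encodes the CD8α chain, which lymphoid cDC1 carry as a homodimer and CD8 T cells pair with CD8β, and lies on chromosome 6 (ENSMUSG00000053977, 71373427 to 71379173, plus strand). Its levels were 359, 346, 432, 458 and 421 CPM in deficient libraries and 156, 213, 195.5, 231 and 231 CPM in WT. The groups were 346 to 458 and 156 to 231 CPM and did not overlap. The means of 403 ± 48.3 and 205 ± 31.1 CPM (SD, n = 5) gave a log2 fold change of 0.97 (SE 0.11, adjusted p = 3.5e-05). Cd8b1, the CD8β chain, stood at 3.49 ± 0.779 and 6.08 ± 5.83 CPM (adjusted p = 0.17), with 16.5 CPM in WT replicate 5 and 3.00 to 4.17 CPM in the other WT libraries. Of 9 T cell genes tested, which include Cd8b1, 0 passed by edgeR and 0 by DESeq2, with 1 at an unadjusted p under 0.05. The T cell receptor subunit gene Cd3e was at 2.04 ± 0.582 and 1.41 ± 1.56 CPM. Without WT replicate 5, 6 of the 9 rose, Cd3e among them (log2 fold change 1.48, adjusted p = 0.00378), while Cd8b1 stood at 0.0041. The 9 genes together summed to 49.4 to 58.8 CPM in deficient libraries, 30.5 to 38.8 CPM in WT replicates 1 to 4 and 96.8 CPM in WT replicate 5. Of the 9, 2 rose with the replicate number as a block and 2 with the macrophage score in the model. Their part in the difference of Cd8a and Itgae was not tested.

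Wdfy4, a BEACH-domain protein needed for cross-presentation of cell-associated antigen, had the highest FPKM of the 10 and the smallest fold change. It lies on chromosome 14 (ENSMUSG00000051506, 32959547 to 33185508, minus strand). Deficient libraries had 2974, 3044, 3135, 3048 and 3162 CPM and WT libraries 1893, 2594, 2526, 2500 and 1956 CPM. The deficient values spanned a narrow range, with an SD of 2.47% of the mean, whereas WT replicates 1 and 5 lay well below the other WT libraries. The means were 3073 ± 75.9 and 2294 ± 339.5 CPM (SD, n = 5), a log2 fold change of 0.42 (SE 0.092, adjusted p = 0.0028). In FPKM the difference was 0.25 on the log2(FPKM + 1) scale (limma, adjusted p = 0.033), and in the edgeR fit with the macrophage score it was 0.30 (adjusted p = 0.0753).

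**Figure D2:**
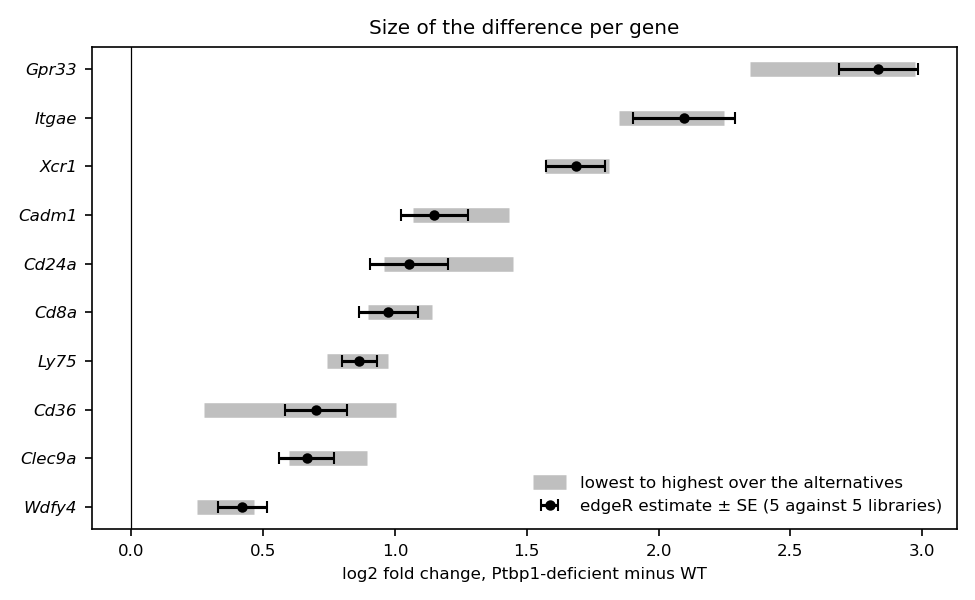
Log2 fold change (deficient minus WT) of each of the 10 genes. Points are edgeR estimates and whiskers are ± SE from 5 against 5 libraries, and grey bars run from the lowest to the highest estimate over 21 alternative fits; no bar reaches 0, and Cd36 has a wide bar, from 0.28 to 1.00.

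The 10 genes rose by different amounts, and their proportions within a library differed between genotypes. For each of the other 9 the log2 ratio of its counts to those of Xcr1 was compared, a value that library scaling does not affect. The ratio of Clec9a was 0.88 ± 0.169 in WT and -0.14 ± 0.0774 in the deficient libraries (SD, n = 5). Counts are not scaled by length, so the sign of a ratio does not say which gene was higher; in FPKM the mean of Clec9a was above that of Xcr1 in both groups. The ratio of Cd8a went from 0.81 ± 0.145 in WT to 0.10 ± 0.0449, and that of Wdfy4 from 4.29 ± 0.120 to 3.04 ± 0.183 (SD, n = 5 each). Only Gpr33 and Itgae gained on Xcr1 among the 9, with differences of 1.15 and 0.44, while the other 7 lost between -1.25 (Wdfy4) and -0.54 (Cadm1). The genotypes did not overlap in any of the 9 ratios, each with p = 0.00794, also after adjustment over the 9 (two-sided exact permutation test; 0.00794 is the smallest p that 5 against 5 libraries can give). All 9 ratios share the Xcr1 counts and restate the fold changes above relative to Xcr1, so the 9 tests are not independent. Over the alternatives, which left out libraries or used FPKM in place of counts, the 9 differences kept their sign. That of Itgae fell to 0.28 without WT replicates 1 and 5, and that of Cadm1 was -0.23 in FPKM.

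**Figure D3:**
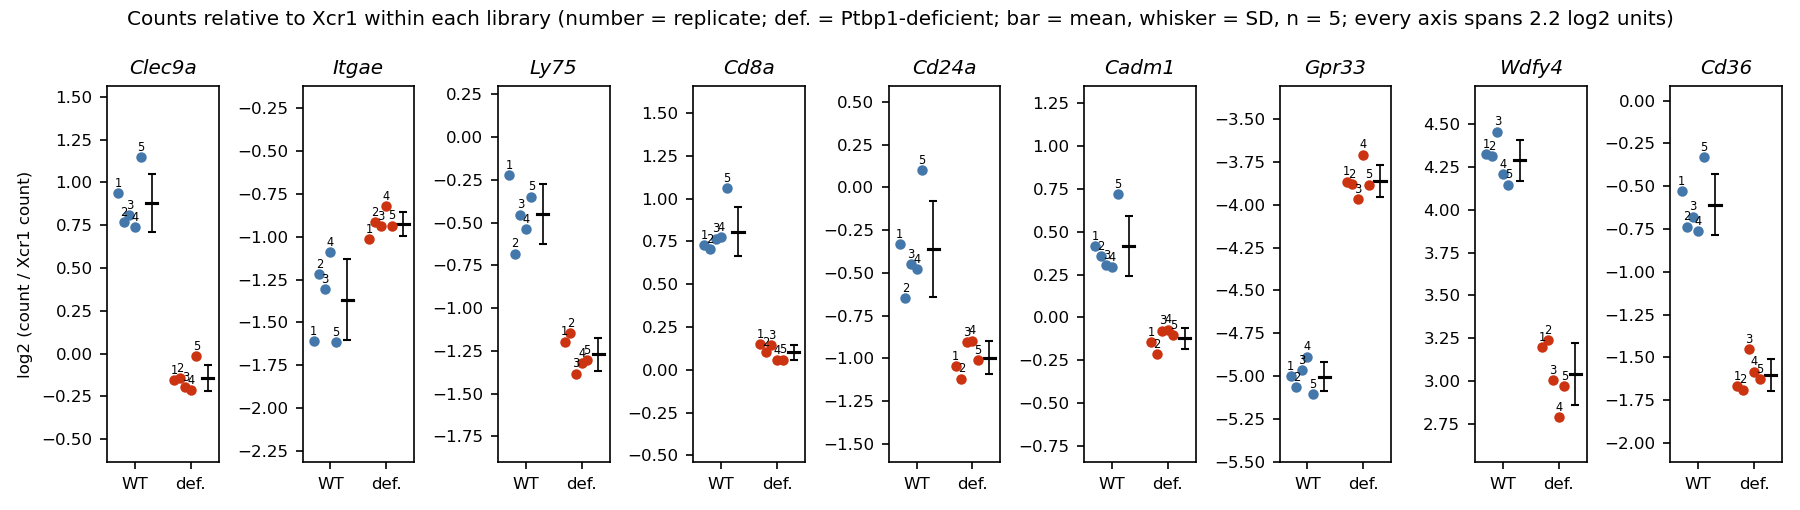
Log2 ratio of each gene's counts to the Xcr1 counts of the same library, WT and Ptbp1-deficient (def.). Points are libraries numbered by replicate, bars means and whiskers SDs (n = 5), and each axis spans the same number of log2 units; Itgae and Gpr33 are higher in the deficient libraries and the other 7 lower.

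Levels of different genes can be set side by side only per length, so the order of the 10 was taken from the deposited FPKM values. In the deficient libraries Wdfy4 came first at 404 FPKM, followed by Clec9a (116), Cd8a (108.5), Cd24a (95.1), Xcr1 (77.0), Cadm1 (53.3), Itgae (47.5), Cd36 (30.8), Ly75 (21.2) and Gpr33 (16.2). Of these neighbours, Clec9a and Cd8a, Cd8a and Cd24a, Cd24a and Xcr1, Cadm1 and Itgae, and Ly75 and Gpr33 overlapped in their library ranges. In WT the order was Wdfy4 (342), Clec9a (73.1), Cd8a (57.9), Cd24a (48.2), Cd36 (25.2), Xcr1 (25.2), Cadm1 (20.5), Ly75 (12.2), Itgae (11.5) and Gpr33 (2.36). The neighbours that overlapped there were Clec9a and Cd8a, Cd8a and Cd24a, Cd36 and Xcr1, Xcr1 and Cadm1, and Ly75 and Itgae. Xcr1 and Cd36 overlapped in WT, whereas in the deficient libraries the lowest Xcr1 value was 66.7 FPKM and the highest Cd36 value 35.0 FPKM. In CPM per kb of annotated exon some neighbours changed places. There the deficient means were 110.9 for Cd8a above 103.5 for Clec9a, 84.5 for Xcr1 above 73.7 for Cd24a, and 43.5 for Itgae and 34.7 for Cd36 above Cadm1, and in WT Xcr1 (26.3) stood above Cd36 (21.3).

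The 10 genes also shared a pattern among libraries of 1 genotype. In CPM, deficient replicates 1 and 2 were the lowest pair of the 5 for 10 of 10 genes, a pattern that 21.4% of all genes tested showed. WT replicate 1 was the lowest WT library in CPM for 10 of 10 genes, against 28.3% of all genes. In FPKM Wdfy4 showed neither pattern. Its deficient replicates 1 to 5 had 400.4, 419.8, 396.2, 396.2 and 408.1 FPKM, and WT replicates 1 and 5 had 301.6 and 284.2 FPKM. For Ly75, WT replicate 1 had 12.3 FPKM and WT replicate 2 had 11.65 FPKM. Over the WT mean, Xcr1 was 2.76-fold higher in deficient replicates 1 and 2 and 3.52-fold higher in replicates 3 to 5. For Cd36 these values were 1.32-fold and 1.83-fold, and for Wdfy4 1.31-fold and 1.36-fold. With deficient replicates 1 and 2 left out, or with WT replicates 1 and 5 left out, 10 of 10 genes still passed. Deficient replicates 1 and 2 were also the shallowest of their group, with 61759378 and 64935948 counts against 80164889 to 92697815, and had the lowest sums of macrophage markers, 387 and 372 CPM against 875 to 1028 CPM. The part of these in the pattern was not tested.

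After the genotype means were removed, the log2 CPM of pairs among the 10 genes correlated over the 10 libraries with a median Pearson r of 0.75 (45 pairs, -0.05 to 0.97). Wdfy4 stood apart in most of its pairs, with a median r of 0.21 in its 9 pairs, whereas the 36 pairs without it had a median of 0.77. Its r was 0.82 with Itgae, 0.66 with Xcr1 and 0.58 with Gpr33, and -0.05 to 0.40 with the rest. The lowest r of the 36 was 0.40, for Itgae and Cd24a. All these r values are descriptions, since they share their libraries, and pairs among other genes were not set beside them. By the chosen rule the genes of at least 5 CPM most like Xcr1 over the 10 libraries, out of 10477 and with the other 9 genes left out, were Fndc7, Psmb9, Ppa1, Polr1a and Pkib. Psmb9, an interferon-inducible subunit of the immunoproteasome, had r = 0.996 (0.91 within genotypes) and stood at 631 ± 51.3 and 275 ± 27.5 CPM (SD, n = 5). Among the 10 themselves, Gpr33 had rank 2 and Itgae rank 15 in likeness to Xcr1, with within-genotype r of 0.94 and 0.95, while Wdfy4 had rank 1814.

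Of 10 genes whose products bind or act with the 10, 3 rose, 2 fell and 5 did not pass. These counts are near the shares of all genes tested, of which 21.9% rose and 23.1% fell. The same shares stand behind the list counts below. Syk, the kinase through which CLEC9A signals, fell from 541 ± 27.3 to 347 ± 10.4 CPM (SD, n = 5; log2 fold change -0.64, SE 0.045, adjusted p = 1.1e-06). Its deficient libraries spanned 329 to 356 CPM and its WT libraries 498 to 567 CPM, without overlap, and it moved opposite to Clec9a. Siglecg, a receptor of CD24 that restrains cross-presentation, was at 230.1 ± 26.0 CPM in deficient and 323.5 ± 14.8 CPM in WT libraries (log2 fold change -0.49, adjusted p = 2.0e-04). Itgb7, the β7 chain that pairs with CD103, rose from 325 ± 16.5 to 379.9 ± 27.2 CPM, a log2 fold change of 0.23 (adjusted p = 0.0064) beside the 2.10 of Itgae. Rab43, a GTPase of cross-presentation in cDC1, rose from 102.5 ± 7.48 to 120.4 ± 9.26 CPM (0.23, adjusted p = 0.0107). With the macrophage score in the model Itgb7 was at 0.09 (adjusted p = 0.30) and Rab43 at 0.08 (adjusted p = 0.42), and neither passed. When deficient replicates 1 and 2 were left out, Rab43 was at 0.16 (adjusted p = 0.0626).

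Crtam, the receptor of CADM1, rose from 0.66 ± 0.303 to 1.72 ± 0.474 CPM (SD, n = 5; log2 fold change 1.38, adjusted p = 0.0026). Xcl1, the ligand of XCR1, had 2.44 ± 1.33 and 1.49 ± 1.46 CPM (adjusted p = 0.32), Cdh1, which encodes the CD103 ligand E-cadherin, 3.11 ± 0.335 and 3.02 ± 2.63 CPM (adjusted p = 0.95), and the CD36 ligand Thbs1 1.34 ± 0.885 and 3.27 ± 4.01 CPM (adjusted p = 0.14). Xcl1, Cdh1, Thbs1, Crtam and Cd8b1 were all highest among WT libraries in replicate 5. Without WT replicate 5, 6 of the 10 partners rose, Xcl1 (log2 fold change 1.52, adjusted p = 0.0076), Cdh1 (0.72, adjusted p = 0.0151) and the chaperone Hsp90ab1 (0.22, adjusted p = 0.0238) in addition. Crtam and Xcl1 are also expressed by NK and T cells. Of 8 NK cell genes 5 rose and 1 fell. Their summed level was 137 to 201 CPM in deficient libraries and 98.0 to 122 CPM in WT. Most of the WT sum was Klrd1, the gene that fell, at 76.7 ± 11.7 and 94.0 ± 10.7 CPM (SD, n = 5). Gzma, among the 5 that rose, was at 53.1 ± 14.7 and 4.31 ± 7.22 CPM. The part of NK and T cells in the values of Crtam and Xcl1 was not tested.

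In the general machinery of cross-presentation and peptide loading, 14 of 29 genes rose, 4 fell and 11 did not pass. Their median log2 fold change was 0.14. With the macrophage score in the model 2 fell. Tap1, a subunit of the transporter that carries peptides into the endoplasmic reticulum, rose from 442 ± 19.8 to 963 ± 57.4 CPM (SD, n = 5; log2 fold change 1.12, SE 0.053, adjusted p = 1.2e-07). Its partner Tap2 rose from 272 ± 15.9 to 435 ± 27.0 CPM (0.68, adjusted p = 2.8e-06) and tapasin, Tapbp, from 400.2 ± 17.5 to 538 ± 33.8 CPM (0.43, adjusted p = 5.2e-05). Sec61g, a subunit of the translocon, rose from 37.2 ± 3.95 to 60.6 ± 6.60 CPM (0.70, adjusted p = 6.8e-05). Sec22b, a SNARE that brings endoplasmic reticulum membrane to phagosomes, rose from 51.7 ± 2.89 to 59.6 ± 1.43 CPM (0.20, adjusted p = 0.0026), but in FPKM it did not pass (0.09 on the log2(FPKM + 1) scale, limma, adjusted p = 0.12). Cybb, a subunit of the phagocyte oxidase, the thiol reductase gene Ifi30, Rab14 and Snap23 were the 4 that fell; they are named because the count was small, after their values were seen. Ifi30 is annotated as a processed transcript and had 3.30 to 5.62 CPM in deficient and 5.08 to 38.0 CPM in WT libraries, which overlapped. In FPKM it stood far higher and the groups were close, at 200.1 ± 5.58 and 211.4 ± 12.5 (SD, n = 5), so the deposited tables differ in the size of its change. Vamp8, which did not pass, was also low in the counts, at 3.32 ± 0.469 and 3.24 ± 0.321 CPM. In FPKM it was at 74.8 ± 3.87 and 64.9 ± 2.27.

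**Figure D4:**
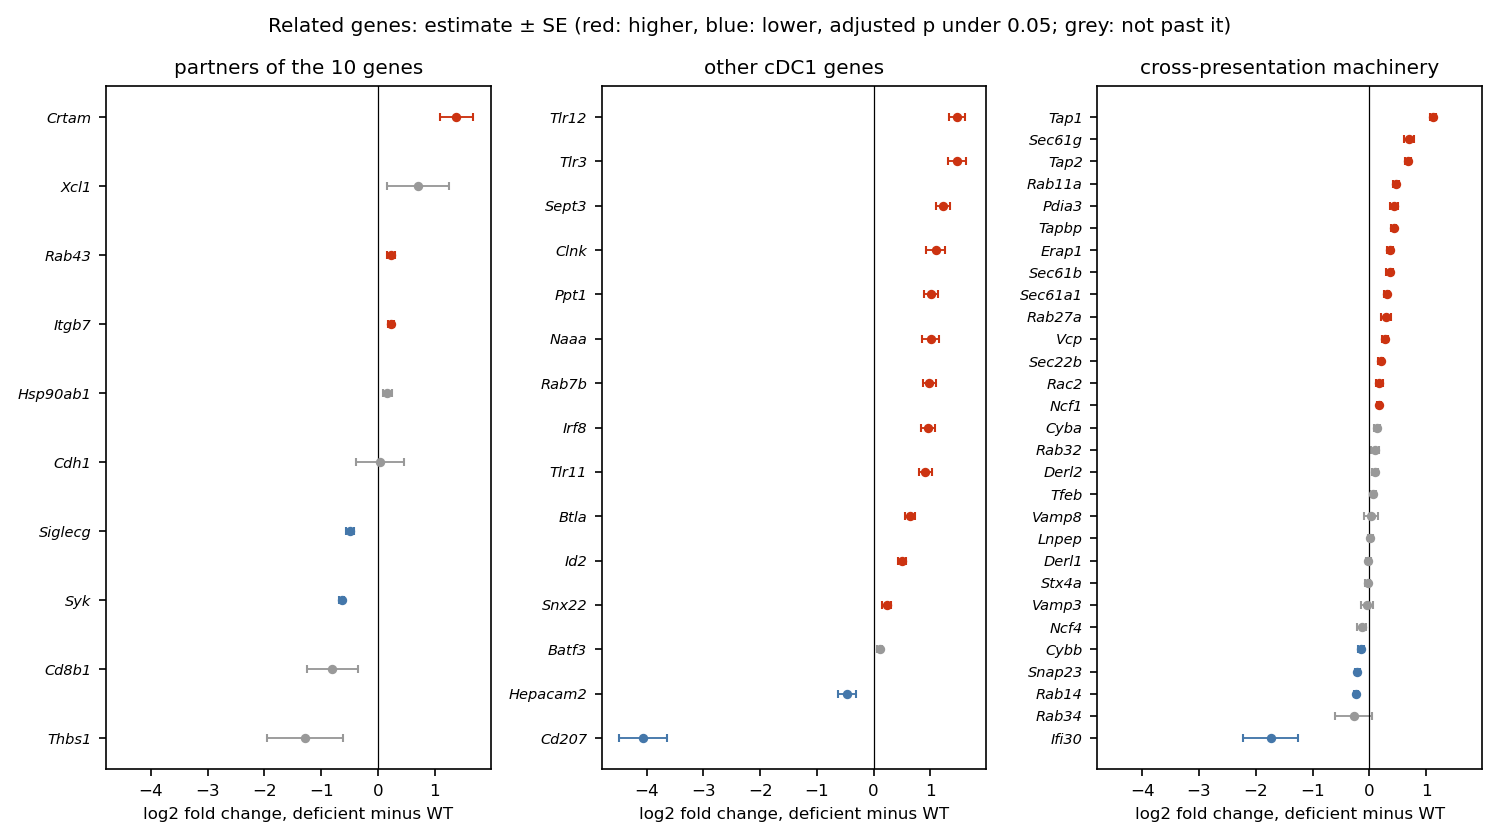
Log2 fold change (deficient minus WT, edgeR estimate ± SE, 5 against 5 libraries) of the partners of the 10 genes, other cDC1 genes and cross-presentation machinery. Red points rose and blue points fell at an adjusted p under 0.05 and grey points did not pass; Crtam and Syk lie on opposite sides of 0, Cd207 is far to the left, and Tap1 leads the machinery.

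Of 15 other genes typical of cDC1, 12 rose, 2 fell and 1 did not pass. Their median log2 fold change was 0.96, beside 1.01 for the 10. Irf8, the transcription factor that specifies cDC1, rose from 699.9 ± 88.1 to 1359 ± 229 CPM (SD, n = 5; log2 fold change 0.96, SE 0.12, adjusted p = 6.1e-05). Its deficient libraries had 1165, 1087, 1494, 1637 and 1415 CPM, so that replicates 1 and 2 were the lowest here too. Batf3, its partner in cDC1, did not pass, with 108.5 ± 5.07 and 100.8 ± 6.19 CPM (0.11, adjusted p = 0.105), though without WT replicate 3 it did (0.14, adjusted p = 0.0274). The sensors Tlr3 and Tlr12, for double-stranded RNA and profilin, rose to 193 ± 15.0 from 69.9 ± 18.7 CPM (1.46, adjusted p = 2.1e-05) and to 98.3 ± 15.2 from 35.5 ± 6.54 CPM (1.47, adjusted p = 6.9e-06). The septin gene Sept3 rose from 48.8 ± 7.71 to 114 ± 18.1 CPM (1.23, adjusted p = 1.8e-05).

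Cd207, which encodes langerin and marks a subset of cDC1 in spleen and tissues as well as Langerhans cells, went the other way. It had 2.50, 2.16, 3.12, 1.69 and 1.87 CPM in deficient libraries and 24.2, 63.4, 35.5, 54.1 and 11.5 CPM in WT, with WT replicates 1 and 5 lowest. The log2 fold change was -4.06 (SE 0.42, adjusted p = 1.7e-05). Hepacam2 was the other gene of this list that fell, and the list had 1 such gene without deficient replicate 4 or 5 or without WT replicate 2 or 4. Irf8, Batf3 and Sec22b were chosen to be named after their values were seen.

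Markers of other cells moved with genotype as well, and differed between libraries of 1 genotype. Of 10 genes typical of cDC2, the other conventional subset, 0 rose and 10 fell (median log2 fold change -0.58), and their summed level was 1076 to 1320 CPM in deficient libraries and 1628 to 1858 CPM in WT. Sirpa, the signal-regulatory protein used to define cDC2, fell from 886 ± 45.9 to 589.5 ± 49.5 CPM (SD, n = 5; -0.59, adjusted p = 2.0e-05). The C-type lectin genes Clec10a and Mgl2 fell from 13.4 ± 2.69 to 3.61 ± 0.597 CPM and from 5.37 ± 1.72 to 1.04 ± 0.221 CPM (-1.89 and -2.36, adjusted p = 3.6e-06 and 1.3e-05).

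The list of mature migratory dendritic cells fell in 6 of 10 genes and rose in 0, and summed to 1015 to 1214 CPM in deficient libraries and 1324 to 1540 CPM in WT, without overlap.

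The macrophage list, relevant to Cd36, fell in 9 of 12 genes and rose in 0. Its summed level did not overlap between genotypes: it was 387 and 372 CPM in deficient replicates 1 and 2, 875 to 1028 CPM in deficient replicates 3 to 5, 1216 to 2437 CPM in WT replicates 1 to 4 and 3557 CPM in WT replicate 5. The B cell list, relevant to Cd24a, fell in 8 of 10 genes and summed to 438 to 508 CPM in deficient libraries, 386 to 669 CPM in WT replicates 1 to 4 and 1810 CPM in WT replicate 5. Most of that sum was Ighm, at 374 ± 25.1 and 478 ± 393 CPM (SD, n = 5). Erythroid genes, also relevant to Cd24a, summed to 14.0 to 74.1 CPM and 24.6 to 88.4 CPM. Plasmacytoid genes, relevant to Clec9a and Cd8a, summed to 156 to 178 CPM and 206.5 to 499 CPM, and 5 of 8 fell while 1 rose. With the macrophage score in the model 9 of the 10 genes passed, all but Wdfy4, where 35.2% of all genes passed in either direction. The part of the other lists in the differences was not tested.

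**Figure D5:**
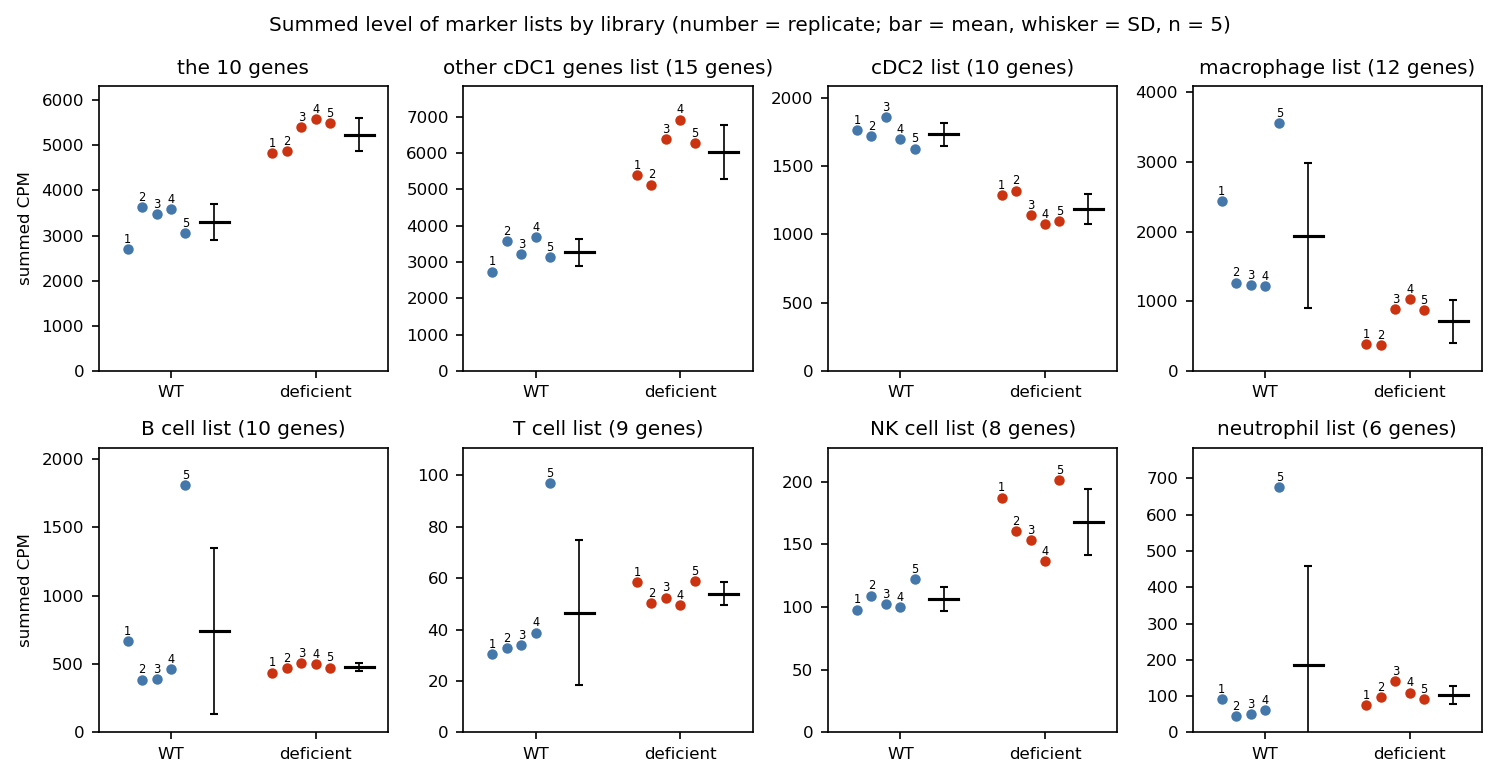
Summed CPM of the 10 genes and of marker lists in each library, WT and Ptbp1-deficient. Points are libraries numbered by replicate, bars means and whiskers SDs (n = 5), cut at 0. The 10 genes and the other cDC1 genes are higher in all deficient libraries, and the cDC2 list is lower. Most of the sum of the 10 genes is Wdfy4, with means of 3073 CPM in deficient and 2294 CPM in WT libraries. WT replicate 5 is the highest library of the macrophage, B cell, T cell and neutrophil lists.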

How the data were processed

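Poly(A) RNA was sequenced in 5 Ptbp1-deficient and 5 WT libraries of mouse dendritic cells. The authors deposited raw counts for each gene and library in a first table, and FPKM in a second. The submitters' processing notes list HISAT2, StringTie, DESeq2 and the human build GRCh38, although the gene identifiers are mouse. The counter and its strand setting are not stated there. Gene rows held 69.4% to 74.1% of each library's counts, and reads outside genes 17.2% to 22.2%, which stayed out of library sizes and tests. Symbols and coordinates came from GENCODE M21 (GRCm38), which gave 19049 of 19178 gene rows a symbol; the FPKM table has 11968 genes after summing 10 repeated identifiers.

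In R 4.3.3 with edgeR 4.0.16 and limma 3.58.1, filterByExpr removed 930 genes and 18248 were tested by the quasi-likelihood method after TMM scaling, with genotype as the only term and an adjusted p threshold of 0.05. The fit was tested on simulated data. CPM carry no prior count, and ± is the SD over 5 libraries. Exact two-sided permutation tests of ratios and depth ran through 252 assignments (scipy 1.17.1). The limma fits of FPKM used pseudocounts of 1 and 0.1. Other alternatives were RLE and upper-quartile scaling, DESeq2 1.42.0, no filter, 1 CPM in 5 libraries, a replicate block, leaving out each library, WT replicates 1 and 5 or deficient replicates 1 and 2, and the macrophage score as a covariate.

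The 10 genes and all lists were chosen with earlier results of these data known. Named genes are the 10, Ptbp1, all partners, up to 4 called genes of a list with the smallest adjusted p, and the 5 genes most like Xcr1 in log2 CPM (offset 0.5 CPM, mean at least 5 CPM); not every gene the rule gives is printed. Cd3e, Flt3, Cd74, H2-Ab1, Ighm, Klrd1, Clec1b, Gm13571, Hepacam2, Il4i1 and Vamp8 were added after their values were seen. So were Irf8, Batf3, Sec22b, Cybb, Ifi30, Rab14 and Snap23, as stated where they appear. One gene of the cross-presentation list is not reported here and was left out of its counts and median, after the data were seen.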

Additional observations from a re-analysis of the deposited data

Results flagged for a closer look

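A screen looked for single libraries far from the other 4 of their group, in the named genes, list sums and ratios. It marked 14 of 152 groups, where chance marks about 1 in 20. WT replicate 5 accounts for 12 of them. Among partners of the 10 genes, it had 4.04 CPM of Xcl1 (other WT libraries 0.467 to 1.20), 7.59 CPM of Cdh1 (1.40 to 2.97), 16.5 CPM of Cd8b1 (3.00 to 4.17), 1.18 CPM of Crtam (0.420 to 0.620) and 10.4 CPM of Thbs1 (0.968 to 1.90). Cd3e was at 4.14 CPM there (0.426 to 1.28), and Gm13571, the antisense gene at Ly75, at 1.81 CPM (0.538 to 0.756). Summed lists in WT replicate 5 were 499 CPM for plasmacytoid dendritic cells (206.5 to 282), 1810 CPM for B cells (386 to 669), 96.8 CPM for T cells (30.5 to 38.8) and 675 CPM for neutrophils (44.0 to 91.3). The log2 ratio of Cd8a to Xcr1 was 1.06 in this library (0.71 to 0.77 in the other WT libraries), still farther from the deficient libraries than theirs. Deficient replicate 4 had 219 CPM of Tlr3 (182 to 192) and 1214 CPM summed over the mature migratory dendritic cell list (1015 to 1065).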

How the results depend on the processing

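The count of changed genes stayed between 5655 and 8634 over the alternatives (8214 as reported), and 207 of 210 recomputed fold changes of the 10 genes kept their direction and passed. The 3 that did not pass were Cd36 in both FPKM fits (0.28 and 0.29, adjusted p = 0.0574 and 0.0617) and Wdfy4 with the macrophage score. Genes called higher numbered 3998 as reported, and 2419 and 2407 in the FPKM fits with pseudocounts 1 and 0.1, which hold fewer genes. Leaving out 1 library gave 7239 to 8368 changed genes and 10 of the 10 genes each time. Directions reversed only for genes that did not pass. Cdh1 was at -0.03 without deficient replicate 5 and at -0.15, -0.13 and -0.12 without WT replicates 2, 3 and 4. Without WT replicate 5, Cd8b1 was at 0.0041 and Clec1b at 0.014. Over all fits without 1 library Cdh1 ran from -0.15 to 0.72, Cd8b1 from -0.98 to 0.0041 and Clec1b from -0.51 to 0.014, and Clec1b was at 0.21 with WT replicates 1 and 5 left out. In the fit with macrophage markers Cd8b1, Thbs1 and Clec1b were at 0.41, 0.75 and 0.65. The cause was not tested.

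With the replicate number as a block, 7538 genes and 10 of the 10 genes changed. The labels do not say that equal numbers pair libraries, and same-numbered libraries had correlations of -0.078, 0.237, -0.179, -0.192 and 0.09, with no deficient library correlating best with its own number.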
